A study of Mus musculus with 4 samples.

Results

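The genes described here are the PEA3 transcription factors Etv1, Etv4 and Etv5 and 7 feedback genes of the ERK pathway, Spry1, Spry2, Spry4, Spred1, Spred2, Dusp4 and Dusp6. These 10 genes, of 19213 named on the array, were measured in 3T3-L1 cells, a mouse line of preadipocytes that turn into adipocytes after hormonal induction. Etv4 was chosen by its measured log2 ratios to DMSO in these same data, which were among the highest in all 3 treatments, and the other members were chosen as genes that respond to FGF or ERK signaling. Insulin, dexamethasone and IBMX were given to the cells of every condition from day 0 to start differentiation. All media held 0.1% DMSO, either alone or with 100 μg/mL bilberry extracts, 100 nM delphinidin or 100 nM cyanidin, and RNA was taken on day 2. Each condition had 1 array of the Agilent Whole Mouse Genome design, labeled with 1 dye, and the cells are a single established line. With 1 array for each condition no test was possible and no difference below has a replicate check. All 3 treatments were compared with the same DMSO array, so their ratios are not independent of each other.

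PEA3 factors are DNA-binding proteins of the ETS family, and their genes are classical targets of fibroblast growth factor signaling. A growth factor that binds its receptor activates Ras and, through a chain of kinases, ERK, and active ERK relieves the repressor Capicua from the PEA3 genes and from several feedback genes. Sprouty and Spred proteins then restrain the pathway upstream of ERK, and the phosphatases Dusp4 and Dusp6 remove phosphate from ERK itself, so the messages of these genes are often read as a sign of recent ERK activity.

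The promoters of members are shown because they are the stretches on which ETS factors and Capicua could act. RefSeq promoters (GRCm38.p6) were matched for 7 members. Dusp4 and Etv4 were not matched, and Spry4 was left out of the search. Each window holds the 250 bases before a gene's start, 5′ to 3′ on the gene's strand, and positions are counted back from the start. Capitals mark the ETS core GGAAG, or its reverse complement, in the windows of Etv1 and Etv5, and the Capicua octamer TNAATGNA, or its reverse complement, in the windows of Spry2 and Dusp6. The Spry1 window held neither and has no capitals.
Etv1, chr12:38779832-38780081, plus strand: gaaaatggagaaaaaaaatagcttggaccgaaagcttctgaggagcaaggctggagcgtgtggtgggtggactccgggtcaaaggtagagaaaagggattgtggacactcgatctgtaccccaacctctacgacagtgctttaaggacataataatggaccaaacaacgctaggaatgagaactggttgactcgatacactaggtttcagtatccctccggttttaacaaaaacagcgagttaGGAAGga
Etv5, chr16:22438369-22438618, minus strand: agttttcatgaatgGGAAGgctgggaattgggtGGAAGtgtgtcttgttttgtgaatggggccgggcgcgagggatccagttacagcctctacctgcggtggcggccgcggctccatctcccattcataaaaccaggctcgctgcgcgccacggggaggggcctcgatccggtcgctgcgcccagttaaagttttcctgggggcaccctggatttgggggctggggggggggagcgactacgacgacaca
Spry1, chr3:37639697-37639946, plus strand: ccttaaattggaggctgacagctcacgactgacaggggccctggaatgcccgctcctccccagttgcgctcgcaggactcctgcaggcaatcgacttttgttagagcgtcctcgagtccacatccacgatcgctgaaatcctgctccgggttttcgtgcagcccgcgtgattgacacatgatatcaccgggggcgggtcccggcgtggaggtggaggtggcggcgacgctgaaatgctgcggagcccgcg
Spry2, chr14:105896820-105897069, minus strand: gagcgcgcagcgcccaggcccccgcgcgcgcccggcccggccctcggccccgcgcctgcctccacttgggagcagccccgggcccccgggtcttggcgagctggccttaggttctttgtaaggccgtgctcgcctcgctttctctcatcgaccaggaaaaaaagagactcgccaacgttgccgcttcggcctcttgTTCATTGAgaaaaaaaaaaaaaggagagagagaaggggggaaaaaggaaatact
Dusp6, chr10:99262981-99263230, plus strand: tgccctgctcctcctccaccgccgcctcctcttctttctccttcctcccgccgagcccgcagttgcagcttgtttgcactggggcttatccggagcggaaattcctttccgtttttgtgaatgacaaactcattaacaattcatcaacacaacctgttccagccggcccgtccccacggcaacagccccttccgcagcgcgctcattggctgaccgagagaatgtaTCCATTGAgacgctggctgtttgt

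The Capicua octamer occurred once in the Dusp6 window, at position -24 as TCCATTGA, and once in the Spry2 window, at position -54 as TTCATTGA. It was not found in the windows of the other 5 matched members, and 10.3% of all 32841 promoter windows held it. The ETS core occurred at position -7 in the printed Etv1 window and at -236 and -217 in the printed Etv5 window. Etv1 and Etv5 have a further window each, in which it was not found. It also occurred 5 times in Spred2, 2 times in Dusp6 and 1 time in Spred1, where 64.1% of all windows held it at least once. Neither the AP-1 site TGANTCA nor the CRE TGACGTCA, both searched on both strands, was found in any window of the matched members. Of all windows 6.75% and 1.55% held them. A match of letters is a description only, and the lack of one says nothing beyond these windows.

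A level below is a processed signal relative to the 75th percentile on the same array, so that a level of 1 lies at that percentile. The error of a level is the scanner software's own estimate for the spot, and the error of a log2 ratio combines those of both spots. It covers neither cells nor labeling. A probe was counted as measured where the software found it well above background. The 75th percentile itself was 861 for DMSO, 576 for bilberry, 1009 for delphinidin and 1016 for cyanidin. The bilberry array was the dimmest and stood apart in its spike-in controls, whose median log2 signal before scaling was 0.95 above that of DMSO, while the delphinidin and cyanidin medians were -0.03 and -0.00 relative to DMSO. Scaling to the spike-ins therefore moved the median bilberry ratio over all genes from 0.17 to -1.36, and the medians of delphinidin and cyanidin to 0.25 and 0.26. Directions below are given with the main scaling, and those of the members were checked under 9 settings of background correction and scaling. Values set against the median of all genes do not move when an array is merely rescaled, and keeping the marked spots left them the same to 2 decimals at every member. Their ranges below therefore reflect the 2 normexp fits and quantile normalization beside the main scaling. Of the adipocyte markers, 8 of 9 were well above background on all 4 arrays (leptin on none), as were 8 of 8 fibroblast or preadipocyte markers. Of 5 macrophage markers Cd68 and Csf1r were measured on all 4 arrays, with levels of 0.0172 to 0.0882, and no array had Ptprc, Adgre1 or Itgam, or any of 4 endothelial markers, well above background.

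The members have 17 probes on the array. A value on all 4 arrays was available for 16 of them, and the exception, a second Spred2 probe, was marked on all 4 arrays for an outlying local background and is not used. On all 4 arrays 11 probes were well above background. The brightest probe on average stood for each gene, and this representative probe was well above background on all 4 arrays for 8 genes, all but Etv5 and Spry4. Among members well above background on both arrays compared, 1 was past 2-fold relative to DMSO, Etv4, which was higher in each of the 3 treatments. Etv5 has only an approximate bound against DMSO and is not in this count, although its bound with bilberry, given below, is past 2-fold. Under spike-in scaling the bilberry ratio of Etv4 was 0.61, and 0 members were past 2-fold in all 3 treatments. Among all genes measured on both arrays, bilberry gave 4.01% higher past 2-fold, delphinidin 1.29% and cyanidin 0.721%, and 0.292% of 11969 genes were higher in all 3. As Etv4 was chosen for this behavior, its count is a description. No member was lower past 2-fold in any treatment under the main scaling, beside 6.45% of all genes for bilberry, 1.96% for delphinidin and 1.51% for cyanidin, whereas spike-in scaling put Dusp4, Etv1 and Spry2 lower past 2-fold with bilberry.

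Etv4 encodes the founding member of the PEA3 group. Its only probe (mm8, chr11:101586219-101586278, minus strand) gave a level of 0.0831 with DMSO, compared with 0.367 with bilberry, 0.267 with delphinidin and 0.252 with cyanidin. It was well above background on all 4 arrays, and every treated array lay above the DMSO array, with bilberry the highest under the main scaling and both anthocyanidins close together. Under spike-in scaling that order turned, with log2 ratios of 0.61 for bilberry, 1.95 for delphinidin and 1.85 for cyanidin. The signal was 4.42-fold higher with bilberry, 3.21-fold with delphinidin and 3.04-fold with cyanidin, or 2.14, 1.68 and 1.60 on the log2 scale with a software error of 0.21 each. By the smallest of its 3 ratios Etv4 ranked 2 of 11969 genes, and in the single treatments it ranked 21, 23 and 18. The probes within 10 rows and columns of its spot had median log2 ratios of 0.12, -0.05 and -0.03, so the surrounding spots were not raised in the same way. Set against the median of all genes, the Etv4 log2 ratio spanned 1.40 to 2.20 with bilberry, 1.14 to 1.79 with delphinidin and 1.05 to 1.70 with cyanidin, and both lower ends for the anthocyanidins came from normexp background correction, which adds an offset of 50 to every signal.

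Etv1, a PEA3 factor also known from neurons and from gastrointestinal stromal tumors (probe at mm8, chr12:39376470-39376530, plus strand), had a level of 0.740 with DMSO against 1.01 with bilberry, 0.967 with delphinidin and 0.973 under cyanidin. The 3 treated arrays were close to each other and above DMSO. The log2 ratios were 0.45, 0.39 and 0.39 with a software error of 0.20, and against the median of all genes they stayed above 0 (0.20 to 0.38 with bilberry, 0.37 to 0.40 with delphinidin and 0.33 to 0.38 with cyanidin). These ratios placed Etv1 at percentile 72.0 of all genes with bilberry and at 91.1 and 91.2 with delphinidin and cyanidin.

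Etv5, which acts with Etv4 in many developing organs, was near the limit of detection. Its first probe (mm8, chr16:22298589-22298648, minus strand) had a level of 0.00918 with DMSO, where it was not well above background, 0.0380 with bilberry, 0.0265 with delphinidin and 0.0162 with cyanidin. Against the lowest signal that was well above background on the DMSO array, the level was at least 2.52-fold higher with bilberry, at least 1.75-fold higher with delphinidin and at least 1.07-fold higher with cyanidin. The second probe (mm8, chr16:22297560-22297619, minus strand) had a level of 0.00721 with DMSO and 0.00903 with bilberry, both not well above background, 0.0260 with delphinidin and 0.0137 under cyanidin. There the level with delphinidin was 1.72-fold above the same approximate limit, and no fold can be given for bilberry or cyanidin. Both Etv5 probes thus placed delphinidin above DMSO, and for bilberry only the first probe was measurable. With normexp background correction the log2 ratio of the first probe was 2.62 with bilberry but 0.20 with delphinidin and -0.02 with cyanidin, and the fit without spots marked for their background lowered the bilberry value to 0.92, so all 3 sizes rest on how the background of a dim spot is treated. Against the median of all genes they were 0.72 to 2.57, 0.21 to 1.69 and -0.02 to 1.04.

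**Figure D1:**
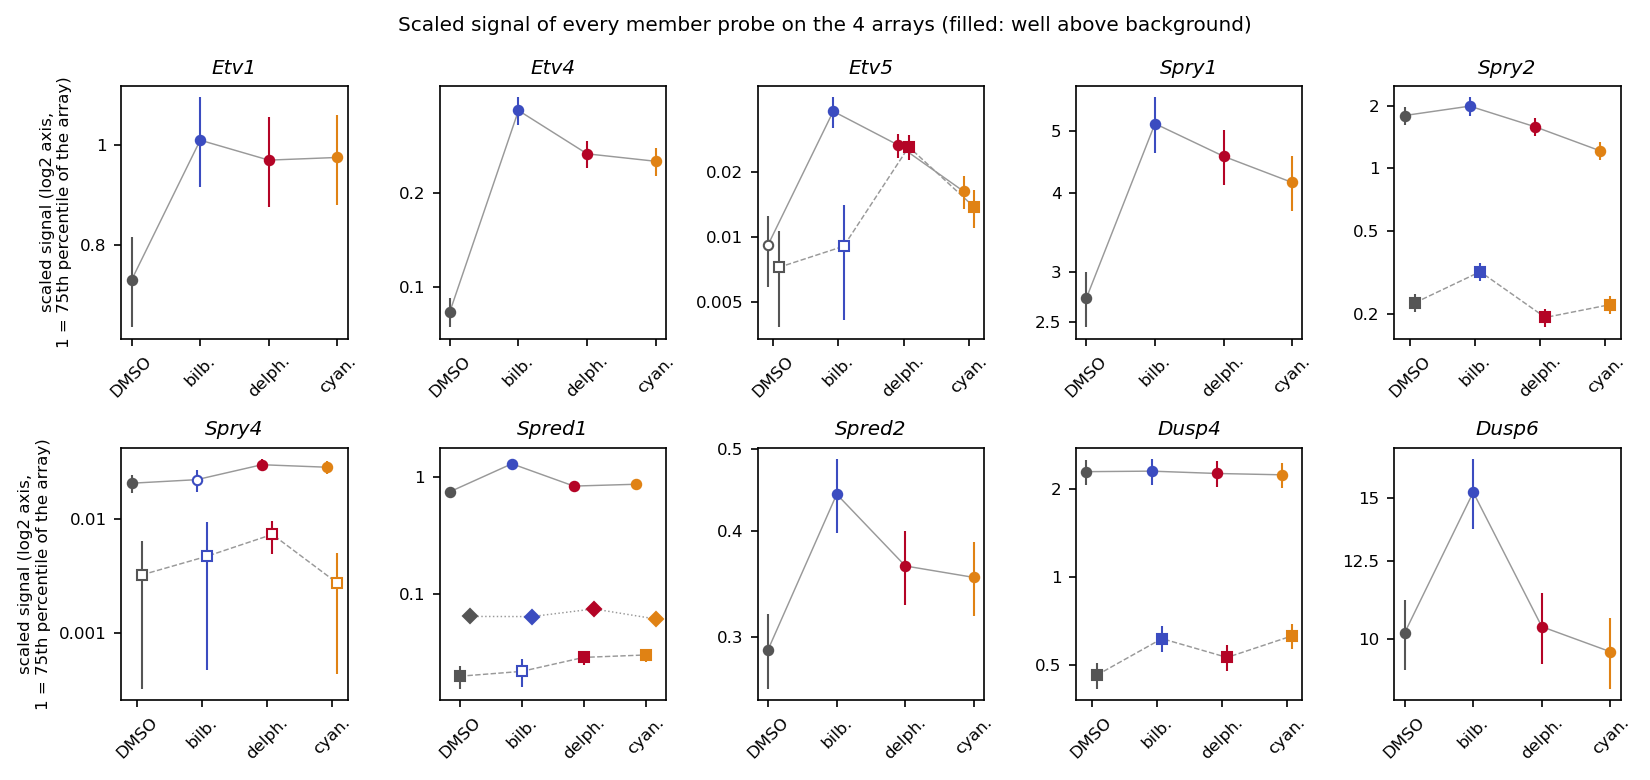
Level of each member probe on the 4 arrays, on log2 axes whose range differs between panels, where 1 is the 75th percentile of an array. Bars are the scanner software's error of the spot, filled points were well above background, circles are the representative probe, squares and diamonds are other probes, and lower bars that would reach 0 are shortened. Etv4, Etv1 and Spry1 lie above DMSO on the 3 treated arrays, while the brightest Dusp4 probe is level across them.

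Sprouty proteins are inducible inhibitors of receptor tyrosine kinase signaling. Spry1 (mm8, chr3:37835821-37835880, plus strand) had a level of 2.72 with DMSO, compared with 5.14 with bilberry, 4.56 with delphinidin and 4.15 under cyanidin. The DMSO array was the lowest and the bilberry array the highest. The log2 ratios were 0.92, 0.75 and 0.61, which is 1.89-, 1.68- and 1.52-fold and below the threshold of 2-fold in each treatment. Spry1 stood at percentile 94.6, 97.2 and 97.2 of all genes, the closest to Etv4 among the 8 members measured on all 4 arrays, and against the median of all genes its log2 ratio was 0.34 to 0.75 with bilberry, 0.74 to 0.77 with delphinidin and 0.55 to 0.61 with cyanidin. Only spike-in scaling put its unadjusted bilberry ratio below 0, at -0.61.

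Spry2, another inducible inhibitor of FGF receptor signaling, was not higher in the same way. Its representative probe had a level of 1.79 with DMSO against 1.99 with bilberry, 1.58 with delphinidin and 1.21 with cyanidin, and its other probe 0.228, 0.320, 0.193 and 0.223. Cyanidin was the lowest array at the first probe and nearly level with DMSO at the other. The log2 ratios of the first probe were 0.15, -0.18 and -0.56, and those of the other were 0.49, -0.23 and -0.03. The bilberry value of the first probe was above 0 in 7 of 9 settings but lay at -0.18 to 0.03 against the median of all genes, and the delphinidin value was above 0 in 1 of 9, under spike-in scaling. The cyanidin value was below 0 in all 9 settings at -0.60 to -0.32, but the probes of Spry2 disagree on its size.

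Spry4 was dim. Its measured probe had a level of 0.0208 with DMSO, 0.0223 with bilberry, where it was not well above background, 0.0302 with delphinidin and 0.0287 under cyanidin. The log2 ratios for delphinidin and cyanidin were 0.54 and 0.47 with an error of 0.31 each, and those ratios ranged from 0.04 to 0.80 and from -0.06 to 0.71 over the 9 settings, or from 0.06 to 0.69 and from -0.06 to 0.66 against the median of all genes. No array had the other Spry4 probe well above background.

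Spred proteins, relatives of the Sproutys, keep Ras inactive by bringing neurofibromin to the membrane. Spred2 had a level of 0.290 with DMSO, compared with 0.443 with bilberry, 0.364 with delphinidin and 0.353 with cyanidin. All treated arrays lay above DMSO, with log2 ratios of 0.61, 0.33 and 0.28 and errors of 0.20 to 0.21, and against the median of all genes they were 0.36 to 0.95, 0.27 to 0.40 and 0.21 to 0.33. Spred1, the member altered in Legius syndrome, had a level of 0.753 with DMSO against 1.31 with bilberry, 0.843 for delphinidin and 0.874 for cyanidin at its representative probe. Here bilberry stood above the other 3 arrays. The log2 ratios were 0.80, 0.16 and 0.21, the last of them close to the software's error of 0.20, and against the median of all genes they were 0.54 to 0.73, 0.15 to 0.18 and 0.19 to 0.21. Under the main scaling a further Spred1 probe did not repeat the bilberry difference. Its levels were 0.0634 for DMSO and 0.0633 for bilberry, 0.0736 for delphinidin and 0.0603 for cyanidin. The bilberry log2 ratio there was -0.00, but 1.84 with normexp background correction and 0.27 in its fit without spots marked for their background. The third Spred1 probe had levels of 0.0194 with DMSO, 0.0281 with delphinidin and 0.0295 with cyanidin, and was not well above background with bilberry. The 3 Spred1 probes therefore give no common value for bilberry.

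Dual-specificity phosphatases switch ERK off directly. Dusp6, a cytoplasmic phosphatase that is selective for ERK and is among the most used readouts of FGF signaling (probe at mm8, chr10:98697039-98697098, plus strand), had a level of 10.2 with DMSO, compared with 15.2 with bilberry, 10.4 with delphinidin and 9.65 under cyanidin. The anthocyanidin arrays were level with DMSO and the bilberry array was above them. The log2 ratios were 0.58, 0.03 and -0.08 with an error of 0.20. Under spike-in scaling the bilberry value was -0.95, and against the median of all genes it was -0.08 to 0.41. The cyanidin value was above 0 only under spike-in scaling, and the delphinidin value was above 0 in 8 of 9 settings without leaving the range of -0.00 to 0.29.

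Dusp4, a nuclear phosphatase of ERK and related kinases, had a level of 2.28 with DMSO against 2.29 with bilberry, 2.25 for delphinidin and 2.23 for cyanidin at its representative probe. These 4 levels were nearly equal, with log2 ratios of 0.01, -0.02 and -0.04, each of which takes both signs over the 9 settings. Against the median of all genes they were -0.29 to -0.15, -0.05 to 0.07 and -0.11 to -0.00. The other Dusp4 probe had levels of 0.463, 0.617, 0.532 and 0.631, or log2 ratios of 0.41, 0.20 and 0.44, and so lay higher on each treated array than with DMSO, unlike the first.

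**Figure D2:**
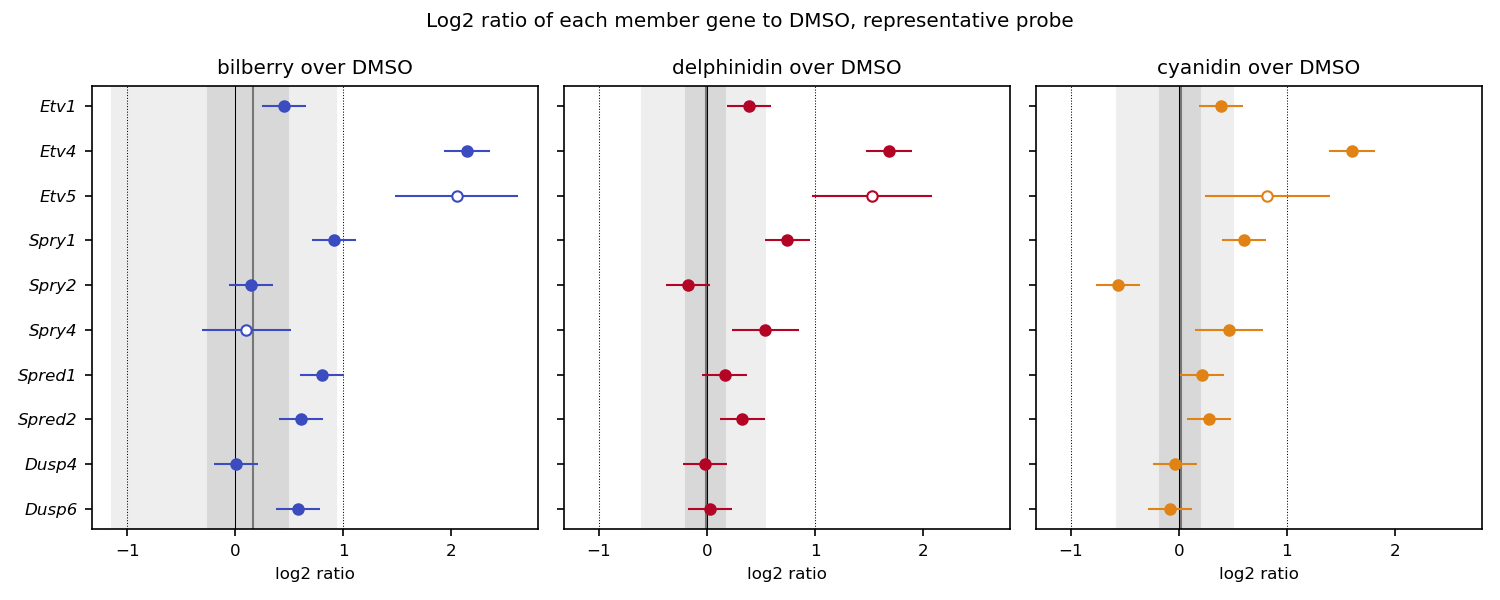
Log2 ratio to DMSO of each member at its representative probe, 1 panel per treatment, with the software's error as bars and open points where 1 of the arrays was not well above background. Grey bands hold the middle 50% and 90% of 11969 genes, the grey line is their median and dotted lines mark 2-fold. Etv4 lies past 2-fold in every panel and Dusp4 lies near 0 in every panel.

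Over the 8 members measured on all 4 arrays, the median log2 ratio was 0.59 for bilberry, 0.25 for delphinidin and 0.25 for cyanidin, beside 0.17, -0.01 and 0.02 over all 11969 genes. Higher than DMSO in all 3 treatments by any amount were 5 of the 8, namely Etv1, Etv4, Spry1, Spred1 and Spred2, beside 33.2% of all genes. In the single treatments 8 of the 8 were above DMSO by any amount with bilberry, beside 62.0% of all genes, 6 with delphinidin, beside 48.7%, and 5 with cyanidin, beside 52.9%, and under spike-in scaling the bilberry values of all of the 8 but Etv4 were below 0. By more than the software's error in each treatment, a criterion chosen after the values were seen, 4 of the 8 were higher (Etv1, Etv4, Spry1 and Spred2), beside 11.8% of all genes, and 0 were lower, beside 9.56%. The shared DMSO array enters all of these counts. The members were chosen with results of these data known, and the counts are given as a description. The signal of an array cannot tell more message per cell from a larger share of cells that carry it.

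Delphinidin and cyanidin are anthocyanidins that differ in the B ring, where delphinidin carries an additional hydroxyl group, and they were given at the same dose for the same time. They were compared directly at 1 array each, so each difference is a value without a test or an interval. Over the 8 genes the log2 of delphinidin over cyanidin ranged from -0.05 to 0.38 with a median of 0.06, beside -0.03 over all genes, and no member measured on both arrays passed 2-fold, beside 1.09% of all genes. For Etv4 it was 0.08 and for Etv1 -0.01, each with a software error of 0.20. Among member probes well above background on both arrays, the widest differences were at the 2 Etv5 probes. At these dim probes they were 0.71 with an error of 0.31 and 0.92 with an error of 0.35, both higher with delphinidin. With normexp the ratios of the first Etv5 probe to DMSO were 0.20 and -0.02, which leaves little of that difference. Spry2 differed by 0.38 at its representative probe but by -0.21 at its other probe. For the bilberry extracts the dose is given by mass, so their values and those of the pure compounds stand side by side at doses that do not match.

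**Figure D3:**
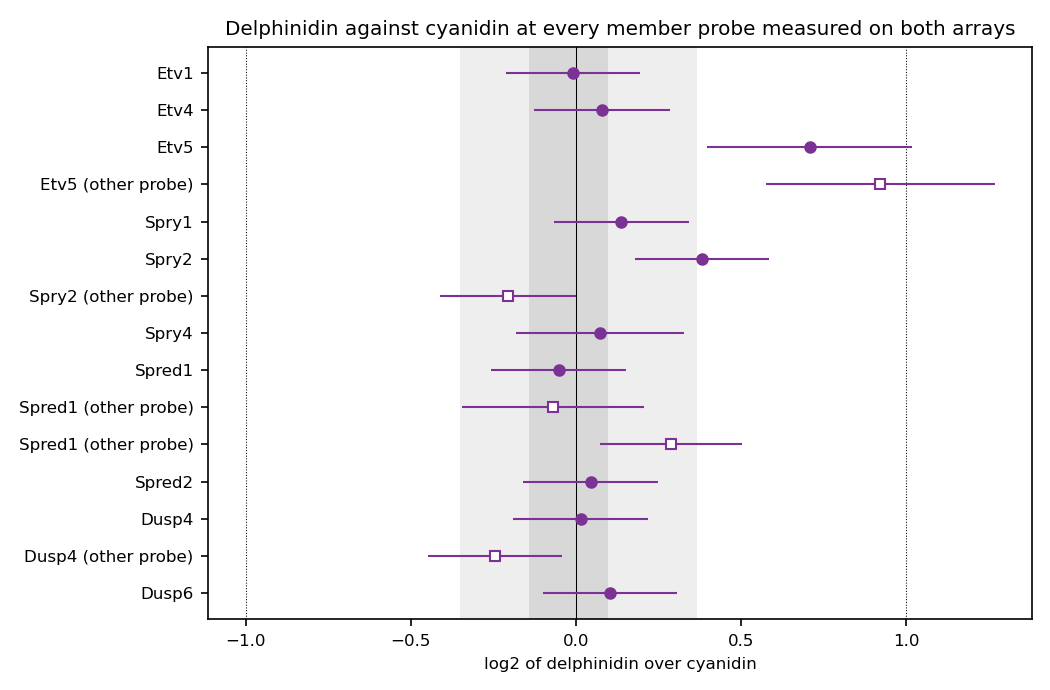
Log2 of delphinidin over cyanidin at every member probe well above background on both arrays, with the software's error as bars, filled circles for representative probes and open squares for other probes. Grey bands hold the middle 50% and 90% of 11969 genes and dotted lines mark 2-fold. The Etv5 probes lie farthest to the right, at 0.71 and 0.92, and Etv4 lies at 0.08.

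The rest of the pathway was read from 6 lists of 130 genes, of which 97 were well above background on all 4 arrays. Among genes measured on both arrays compared, 5 of 97 were higher and 4 lower past 2-fold with bilberry, 1 of 99 higher and 3 lower with delphinidin, and 1 of 99 higher and 1 lower with cyanidin. Of all genes 4.01%, 1.29% and 0.721% were higher and 6.45%, 1.96% and 1.51% lower past 2-fold in these treatments. The median log2 ratio of the 97 genes was 0.24, -0.05 and 0.02, close to that of all genes. Spike-in scaling shifts every bilberry log2 ratio down by an equal amount, which takes each of the list genes named here as higher with bilberry, other than Egr3, to below 0. The same shift leaves none of the 97 genes higher past 2-fold with bilberry and puts most of them lower past 2-fold. By more than the software's error in all 3 treatments 12 of the 97 were higher, beside 11.8% of all genes, and 13 were lower, beside 9.56%.

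Of the 97 genes well above background on all 4 arrays, only cyclin D1 (Ccnd1), which drives entry into the cell cycle and is a common late target of ERK, was past 2-fold in the same direction in all 3 treatments. Its level was 1.31 with DMSO, compared with 3.70 with bilberry, 3.78 with delphinidin and 3.19 under cyanidin. The log2 ratios at its 1 probe lay between 1.28 with cyanidin and 1.53 with delphinidin, and under spike-in scaling the count of genes past 2-fold in all 3 treatments was 0.

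Among growth factor ligands, 12 of 30 were measured on all 4 arrays. The 2 with the highest probe signal were Pdgfa, a platelet-derived growth factor (log2 ratios of 0.44, 0.35 and 0.38), and Pdgfc (0.42, 0.15 and 0.36). With bilberry the heparin-binding EGF-like factor Hbegf was higher (1.03), and Hgf, Fgf7, Egf and Igf1 were lower (-1.58, -1.26, -2.67 and -1.08). The only Egf probe was dim, with a level of 0.190 with DMSO and 0.0299 with bilberry. The lowest level well above background on the bilberry array was 0.0223. Hgf, the ligand of the receptor Met, had a level of 1.93 with DMSO against 0.644 with bilberry, 0.853 with delphinidin and 1.22 with cyanidin. It was the only list gene well above background on all 4 arrays that was lower past 2-fold with both bilberry and delphinidin (-1.18), and its cyanidin ratio was -0.66. The other 2 Hgf probes that were measured on all 4 arrays gave -0.95, -0.94 and -1.07 at one and -1.91 to -0.77 at the other.

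Among receptors, 14 of 15 were measured on all 4 arrays, and the 2 with the highest signal were the platelet-derived growth factor receptor Pdgfra (-0.21, -0.15 and -0.18) and Fgfrl1 (0.36, 0.03 and 0.31). Fgfr1, the main FGF receptor of mesenchymal cells, had ratios of 0.44, 0.30 and 0.34. Met, the receptor for Hgf, had a level of 2.44 with DMSO, compared with 5.21 with bilberry, 4.65 with delphinidin and 4.14 with cyanidin. Its log2 ratios were 1.10, 0.93 and 0.76, and its other 2 probes gave 0.97, 0.61 and 0.54 at one and 1.04, 1.21 and 1.17 at the other. All 3 Met probes were higher on the 3 treated arrays than with DMSO, and all 3 Hgf probes measured on all 4 arrays were lower.

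In the ERK cascade itself, from adaptors to ERK and its kinases, 23 of 24 genes were measured on all 4 arrays. None passed 2-fold in any treatment under the main scaling, whereas the spike-in shift put most of the 23 lower past 2-fold with bilberry. The phosphatase Ptpn11, with the highest signal of the list, had ratios of 0.43, 0.22 and 0.15. Of 19 other feedback genes 17 were measured on all 4 arrays. Errfi1, an inhibitor of the EGF receptor, had ratios of 0.20, -0.36 and -0.23, and Lrig1, which also restrains that receptor, had 0.51, 0.40 and 0.46. The phosphatase Dusp8 was higher past 2-fold with bilberry (1.09) and Dusp2 was lower with delphinidin (-1.07). Of 20 other ERK-responsive genes 19 were measured on all 4 arrays, and the 2 with the highest signal, Junb and Ier5, had ratios of -0.02, -0.66 and -0.46 and of 0.00, -0.24 and -0.10. Besides Ccnd1, Egr3, an immediate early zinc finger factor, was higher past 2-fold with bilberry (1.54), at a level of 0.0228 with DMSO and 0.0665 with bilberry, and its other probe was well above background on only 1 array. Of 22 other ETS factors 12 were measured on all 4 arrays, and none of these 12 passed 2-fold under the main scaling. Erf, a repressor that ERK exports from the nucleus, had ratios of 0.48, -0.10 and -0.17, and Ets2 had 0.17, -0.61 and -0.15. Spdef was lower past 2-fold with delphinidin (-1.36) and cyanidin (-1.15) and was not well above background with bilberry. Its level there is only bounded, at about 0.0223 against 0.0792 with DMSO, which is also past 2-fold lower. As a bound it is outside the counts over all 3 treatments. By more than the software's error in all 3 treatments, none of the 12 ETS factors was higher, beside 11.8% of all genes. Lower by the same criterion were 2 of the 12, beside 9.56% of all genes.

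**Figure D4:**
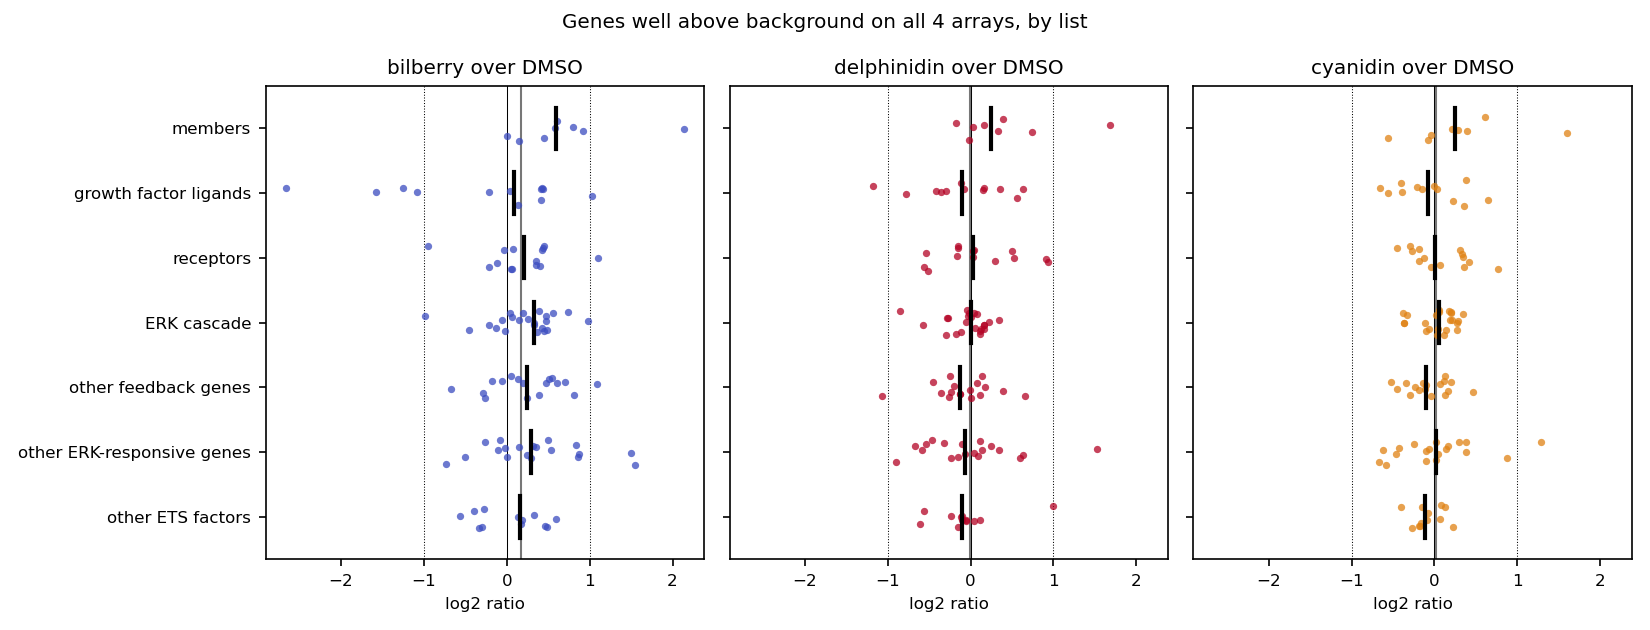
Log2 ratios to DMSO of the members and of 6 pathway lists, each point 1 gene well above background on all 4 arrays, with the black bar at the median of the list and the grey line at the median of all genes. Dotted lines mark 2-fold, and the vertical scatter within a list carries no value. Etv4 is the farthest right of the 8 members in every panel, and the medians of the 6 pathway lists lie near the median of all genes.

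The genes whose 3 log2 ratios lay nearest those of Etv4, by Euclidean distance over the 3 ratios among 11968 genes, were Arhgap22 (distance 0.36), Camsap3 (0.47), S100b (0.47), Ptprv (0.51) and Gsta3 (0.56). Arhgap22, a GTPase-activating protein for Rac, had a level of 1.02 with DMSO against 3.98 with bilberry, 3.29 with delphinidin and 2.47 with cyanidin. S100b, a calcium-binding protein, had 0.261, 0.860, 0.969 and 0.788, and Gsta3, a glutathione transferase, had 0.425, 1.33, 1.22 and 1.48. The distance rests on 4 arrays that share their reference, so it describes likeness on these arrays only.

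Cell markers also differed between the arrays. Of the 8 measured adipocyte markers 6 were above DMSO by any amount in all 3 treatments, beside 33.2% of all genes, with list medians of 0.16, 0.25 and 0.48 on the log2 scale. The range was from -1.07 (Adipoq) to 0.80 (Cfd) with bilberry, from -0.19 to 1.15 with delphinidin and from -0.04 to 1.75 with cyanidin. Pparg, the master regulator of adipocyte differentiation, had log2 ratios of 0.15, 0.31 and 0.31. The 8 fibroblast or preadipocyte markers had medians of -0.06, -0.06 and -0.23, and bilberry had 3 of them above DMSO, delphinidin 4 and cyanidin 0, beside 62.0%, 48.7% and 52.9% of all genes. The equal downward shift of spike-in scaling takes every bilberry value of both marker lists below 0, so that these counts become 0 for bilberry and for all 3 treatments. Among the fibroblast or preadipocyte markers Thy1 was the lowest (-1.20, -0.94 and -0.87) and Col1a2 the highest with bilberry (0.54). The part of differentiation stage in the member values was not tested.

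**Figure D5:**
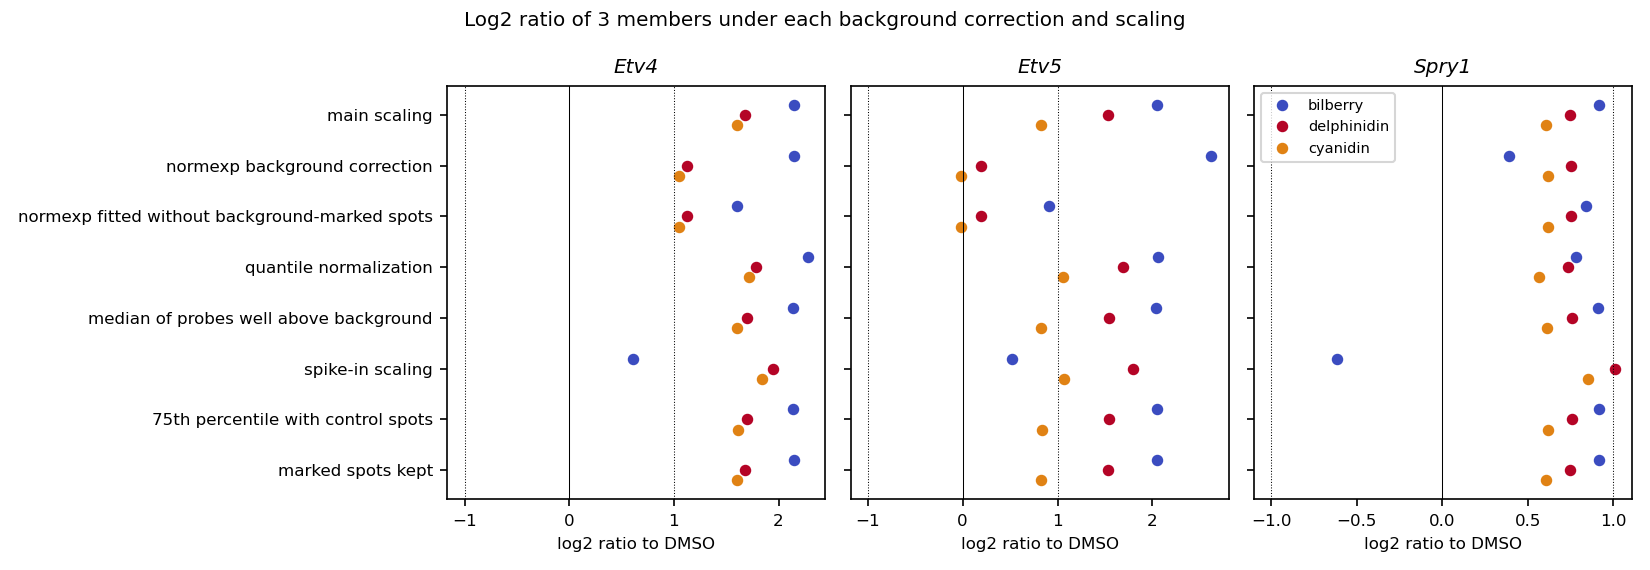
Log2 ratio to DMSO of Etv4, Etv5 and Spry1 at their representative probes under the main scaling and 7 other settings of background correction and scaling, with 1 color per treatment and dotted lines at 2-fold. Etv4 stays above 0 in all of them and is lowest for bilberry, at 0.61, under spike-in scaling, where Spry1 with bilberry is at -0.61. The Etv5 probe was not well above background with DMSO.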

How the data were processed

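RNA of 3T3-L1 cells on day 2 was measured on 4 Agilent arrays, 1 for each condition. The authors used 1 dye and deposited scanner output of the Feature Extraction program, in which the processed signal is an intensity after that program had subtracted background. A series-wide deposited table repeats these intensity values. As the study's methods describe, signals were scaled to the 75th percentile of each array, here over 43379 spots that were not controls, before log2 was taken. Controls and the 701 to 875 spots per array marked as outliers were not used and repeated spots were averaged by probe, leaving 39373 of 41174 probes with a value on all 4 arrays. The number of arrays limits the precision, and the replicate spot SD (0.0326 to 0.0387 on the log2 scale) covers the spots of an array only.

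Genes were named from the files and, for 24375 probes, through accessions in a RefSeq table of GRCm38.p6, used for names only. Probe coordinates are on mm8, as the files give them, and the exon or UTR under a probe is not given here. A gene was called past 2-fold where its log2 ratio was over 1 or under -1 at the probe with the highest mean signal, well above background on both arrays compared, or on all 4 for counts over 3 treatments. A level not well above background was bounded by the lowest signal that was well above background on that array. Such a bound is approximate, since some brighter spots were also not well above background. No test across samples was made, since there was 1 array per group. The members and lists were chosen with earlier results of these data known. The genes named are the 10 members with all probes, list genes past 2-fold in all 3 treatments, the 2 genes of each list with the highest mean signal, of which 1 is not reported here, and the 5 genes most like Etv4. Other genes of the lists and the markers were named after their values were seen. The alternatives were normexp background correction with an offset of 50, its fit without spots marked for their background, quantile normalization, 3 other scalings, the deposited table, marked spots kept, 2 other rules on detection, thresholds of 1.5-fold and 3-fold, any probe of a gene, and leaving out the bilberry array. The computation of ratios and calls was checked on simulated data with planted changes well past 2-fold and noise about that of replicate spots. That check covers the computation only, not how reliable a call on these arrays is. Programs were R 4.3.3 with limma 3.58.1 and Python 3.11.15 with pandas 2.3.3, numpy 2.4.6 and matplotlib 3.10.9.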

Additional observations from a re-analysis of the deposited data

How the results depend on the processing

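Etv4 was past 2-fold in all 3 treatments under every setting tried except spike-in scaling, under which its bilberry ratio was 0.61 and 0 members passed in all 3 treatments. Under spike-in scaling 3 members passed with bilberry (Dusp4, Etv1 and Spry2, all lower) and 2 with delphinidin (Etv4 and Spry1). That scaling also moved the median bilberry ratio of all genes to -1.36. With no filter on detection 2 members passed with bilberry and 2 with delphinidin, Etv4 and Etv5 in both. At a threshold of 1.5-fold 4 members passed with bilberry (Etv4, Spred1, Spred2 and Spry1), 2 with delphinidin, 2 with cyanidin and 2 in all 3 treatments, Etv4 and Spry1 in each of these. Of the pathway lists, the count past 2-fold in all 3 treatments was 1 (Ccnd1). It was 0 with spike-in scaling, 3 with no filter on detection (Ccnd1, Spdef and Tgfa), 6 at 1.5-fold, 0 at 3-fold, 2 with any probe of a gene (Ccnd1 and Met) and 2 without the bilberry array (Ccnd1 and Spdef). No call changed its sign at the same gene. The ratios of dim probes, among them those of Etv5, Spry4 and the dimmer Spred1 probes, moved with normexp background correction and its offset. In the normexp fit over all spots, the background mean of the bilberry array was -345, where the fit without spots marked for their background gave -5.65. No paired analysis was possible because each group has 1 array.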
